A study of Caenorhabditis elegans with 11 samples.

Results

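RNA recovered with single ribosomes was compared with unfractionated RNA in control adult Caenorhabditis elegans, gene by gene, in 4 of the 11 libraries of the series: control monosome replicates 1 and 2 and control total RNA replicates 1 and 2. A gene was a member if it had at least 10 counts in at least 2 of these 4 libraries, which 14274 of the 46756 annotated genes had. The monosome group and the total RNA group were identical in everything but the fraction. Both came from N2 (Bristol) wild-type worms, unmutated and carrying no transgene, that were grown on OP50 and moved on day 1 of adulthood to E. coli HT115 with the empty RNAi vector L4440 for 96 h at 20 °C, so that they were harvested on day 5. The study asked how silencing of the nuclear export receptor xpo-1 changes translation, and its worms on xpo-1 dsRNA gave 1 monosome and 2 total RNA libraries that are set beside the control values here without a test. The study worked in biological duplicate and split each cycloheximide-treated lysate between unfractionated RNA and gradient fractions, so a monosome library and the total RNA library of the same number share a lysate, called culture 1 or culture 2 below. All libraries were made from polyadenylated RNA of whole, mixed-tissue worms.

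A cytosolic mRNA that carries 1 ribosome sediments with the monosome peak, and an mRNA that carries several sediments with polysomes. Transcripts move from the lighter to the heavier fraction as initiation adds ribosomes during elongation, and how many fit depends on the length of the open reading frame. Mitochondria hold their own genome and their own ribosomes, on which a few subunits of the respiratory chain are made, while most subunits are made on cytosolic ribosomes and imported.

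The monosome libraries held 18760872 and 18829672 counts, and the total RNA libraries 18356260 and 21828657. Between 19508 and 20081 genes had a count in monosome RNA, against 18274 and 18854 in total RNA. Replicates of a fraction differed far beyond counting noise (chi-square over degrees of freedom of 62.4 for monosome and 41.0 for total RNA), so none was a repeat of the other. The first principal component carried 56.3% of the variance and the second 35.8%. Sperm markers differed between the cultures in both fractions. Their summed levels were 13.8 and 69.5 reads per 1000000 counted (CPM) in monosome RNA and 31.0 and 120 CPM in total RNA, culture 1 first. Marker sums were scaled only to the total counts of each library, unlike the CPM of single genes. The defining markers of intestine, muscle, epidermis, germline and neurons were present in all 4 libraries. Those of the early embryo summed to 4.78 to 5.02 CPM in monosome RNA and 5.54 to 5.61 CPM in total RNA, with 4 of the 6 counted in all 4 libraries. The level of xpo-1 itself was 52.4 CPM in the monosome library and 36.7 and 38.6 CPM in the total RNA libraries of worms on xpo-1 dsRNA, against 271 and 294 CPM in control monosome and 303 and 237 CPM in control total RNA.

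In control worms, 2276 genes (15.9% of those tested) were higher in monosome RNA than in total RNA and 2539 (17.8%) were lower, at an adjusted p under 0.05 and a change over 1.5-fold in edgeR's quasi-likelihood test with the culture as a block. Of these 4815 genes, 4794 changed in the same direction in both cultures. A change past 2-fold was seen for 1390 of the higher and 1385 of the lower genes, and past 4-fold for 203 and 105. Both monosome libraries lay above both total RNA libraries for 27.7% of the genes tested and below both for 27.9%. The culture-wise log2 ratios had a Pearson correlation of 0.774 across the 14274 genes, which are not independent replicates, and their difference had an SD of 0.517 over genes. Without the block, when the difference between cultures counts as noise, 637 genes were higher and 564 lower, and each of them was among those called with the block. The direction split depended on the scaling, since scaling to total counts gave 2951 higher and 1088 lower genes (73.1% of calls higher, against 47.3%) and moved the median of all genes to 0.28, against -0.03 on the log2 scale. Every value here is a share of a library, so a gain of one RNA and a loss of the others cannot be told apart, nor, in whole worms, can fewer cells of a type and less RNA per cell.

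**Figure D1:**
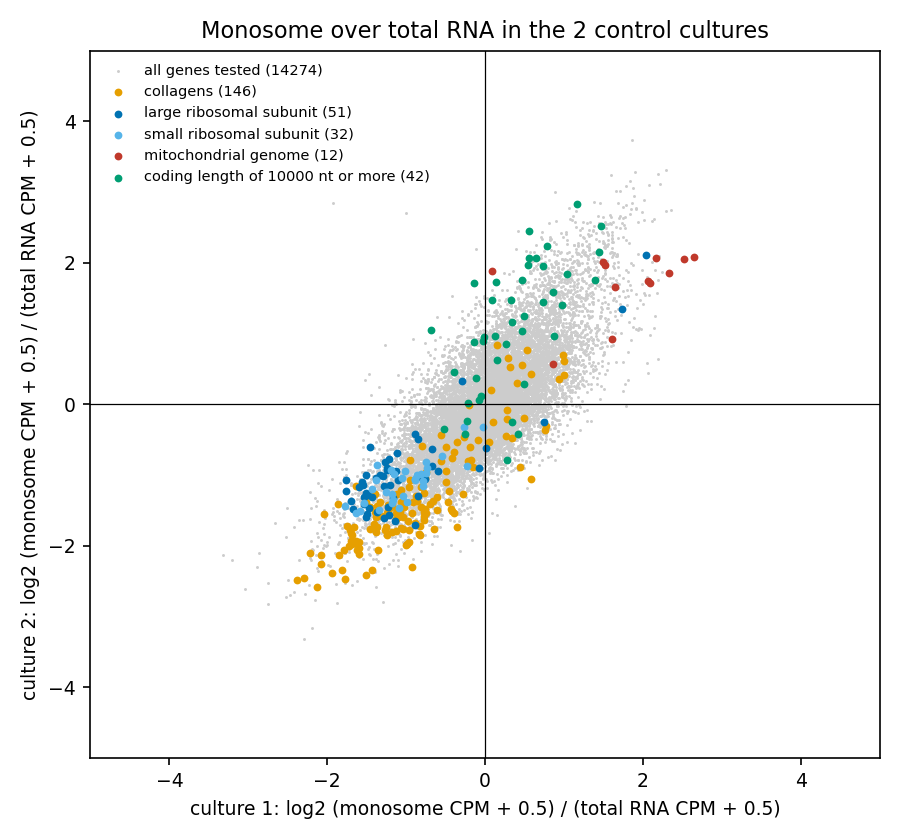
Each point is a gene, placed by its log2 ratio of monosome to total RNA CPM (0.5 added to each) in culture 1 on the x axis and in culture 2 on the y axis, with 5 gene lists coloured over all 14274 genes. The 12 genes of the mitochondrial genome lie above 0 in both cultures, and most ribosomal protein and collagen genes lie below 0 in both.

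The filter on low counts shaped the weakest members. Among the 202 genes whose second-highest count was exactly 10, just inside the filter, mean counts were 10.6 in monosome and 7.66 in total RNA, and 26 were called higher and 12 lower. The 257 genes just outside it, at 9, had mean counts of 9.48 in monosome and 6.96 in total RNA. A further 327 genes passed only through the 2 monosome libraries, 181 of them called higher, and 70 passed only through the 2 total RNA libraries, 46 of them called lower.

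The most enriched group was the mitochondrial genome. All 12 protein-coding mitochondrial genes were higher in monosome RNA (12 of 12, against 15.9% of all genes), with a median log2 fold change of 1.84 and medians of 1.85 and 1.87 in cultures 1 and 2. ATP6, the membrane subunit of ATP synthase (MtDNA, 2634 to 3235), stood at 5020 and 3218 CPM in monosome RNA, against 802 and 760 CPM in total RNA, or 2.36 (SE 0.21, adjusted p = 1.48e-26). COX1, the catalytic subunit of cytochrome c oxidase (MtDNA, 7827 to 9428), had 9606 and 7144 CPM in monosome RNA, against 2252 and 2169 CPM in total RNA, or 1.91 on the log2 scale. CYTB, the cytochrome b of complex III, had 7506 and 5737 CPM in monosome RNA and 1490 and 1579 CPM in total RNA, or 2.097. The groups did not overlap for any of these, nor for 11 of the 12 genes in all. The exception was ND3, a subunit of complex I, at 48.2 and 183 CPM in monosome RNA and 45.5 and 49.4 CPM in total RNA, where culture 1 had a log2 ratio of 0.08 and culture 2 one of 1.88. Without monosome replicate 2, in a fit that cannot hold the block, its log2 fold change was -0.012. ND4L, another complex I subunit, had the smallest change, with 7.64 and 6.98 CPM in monosome RNA and 3.97 and 4.54 CPM in total RNA, or 0.78. These last genes, ND3 and ND4L, lost their call without the culture block (adjusted p = 0.164 and 0.182) and the other 10 kept it. Exons of 10 of the 12 overlap those of a neighbouring gene in the annotation, so reads at their borders may have been shared.

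As a share of each library, mitochondrial mRNA made up 3.64% and 3.10% of the counts in monosome RNA, 0.0969% and 0.231% in control polysome RNA, and 0.677% in both total RNA libraries. Mitochondrial mRNA was therefore a larger part of the monosome libraries and a smaller part of the polysome libraries than of total RNA in both cultures. What the mitochondrial transcripts were bound to in the gradient was not measured.

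**Figure D2:**
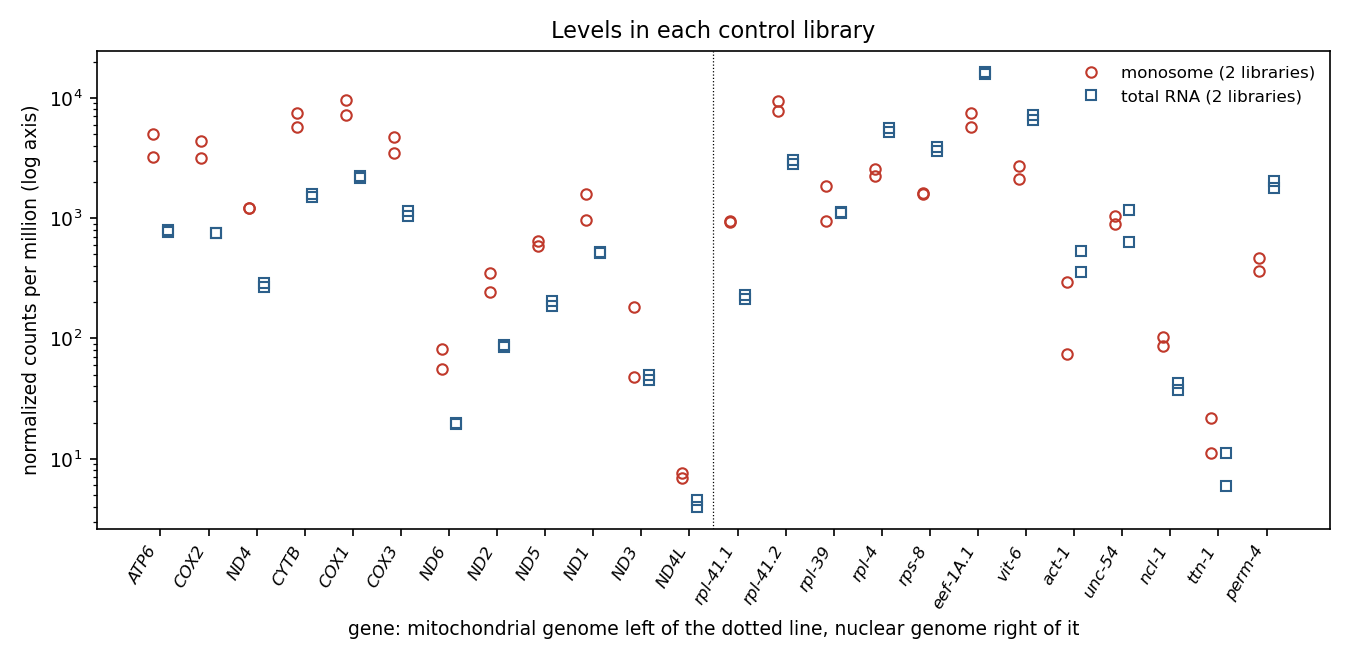
Normalized CPM on a log axis are shown for the 12 mitochondrial genes (left of the dotted line) and 12 nuclear genes (right of it), with each monosome library as a circle and each total RNA library as a square. The monosome circles sit above the total RNA squares for 11 mitochondrial genes and for rpl-41.1 and rpl-41.2, and below them for rpl-4, rps-8, eef-1A.1, vit-6 and perm-4.

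Nuclear genes for the same respiratory complexes showed the other direction. Of 64 nuclear genes for respiratory chain subunits, 44 were lower in monosome RNA and none was higher, with a median log2 fold change of -0.76 (cultures -0.64 and -0.88), and all monosome values lay below all total RNA values for 60 of them (27.9% of all genes tested). Without the culture block 18 of the 44 kept their call. In complex I, 7 of 7 mitochondrial genes were higher (median 1.66), while 21 of 33 nuclear genes were lower (median -0.65). In complex IV, 3 of 3 mitochondrial genes were higher (median 1.91) and 5 of 7 nuclear genes were lower (median -1.18). Complex V had its mitochondrial gene ATP6 higher and 8 of 10 nuclear genes lower (median -0.78). The nuclear complex IV subunit cox-4 had 278 and 277 CPM in monosome RNA and 721 and 788 CPM in total RNA, or -1.44 (SE 0.20, adjusted p = 6.22e-11). Another, cox-7C, had 185 and 284 CPM in monosome RNA, against 594 and 620 CPM in total RNA, or -1.40. Of 69 genes for proteins of the mitochondrial ribosome, which are also made in the cytosol, 22 were lower and 1 higher (median -0.49), and 4 of the lower ones kept their call without the block. The lowest of them, mrpl-12, had 36.9 and 33.8 CPM in monosome RNA and 106 and 111 CPM in total RNA, or -1.61.

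Messages for cytosolic ribosomal proteins, a co-regulated set of short and highly expressed genes, were lower in monosome RNA. Of 83 tested, 74 were lower and 2 higher, with a median log2 fold change of -1.16, and without the culture block 63 remained lower. The large subunit had 45 lower and 2 higher of 51 (median -1.17) and the small subunit 29 lower of 32 (median -1.06), and the medians were alike in cultures 1 and 2 (-1.25 and -1.07 for the large subunit, -1.05 and -1.07 for the small). The large-subunit gene rpl-4 had 2247 and 2558 CPM in monosome RNA, against 5170 and 5624 CPM in total RNA (-1.17). For rps-8, of the small subunit, the levels were 1598 and 1628 CPM in monosome RNA and 3629 and 3915 CPM in total RNA (-1.22). Neither gene's groups overlapped, and replicates of a fraction lay within a small part of the gap. The greatest falls were -1.61 for rps-22, -1.59 for ubl-1, which encodes a ubiquitin-like fusion with a small-subunit protein, and -1.58 for rpl-5. For the paralogs of the 5S-binding protein RPL-11, rpl-11.1 was at -1.45 and rpl-11.2 at -0.77, and the call for rpl-11.2 was lost without the block.

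The ribosomal protein genes that departed from this were mostly the shortest. In groups of coding length drawn after the values were seen, 2 of 11 genes with 66 to 273 nt were higher and 4 were lower (median -0.31), against 30 of 32 lower at 312 to 447 nt (median -1.23), 19 of 19 at 453 to 594 nt (-1.21) and 21 of 21 at 606 to 1203 nt (-1.17). The 2 higher genes, rpl-41.1 and rpl-41.2, encode the same very small large-subunit protein from open reading frames of 66 nt. The levels of rpl-41.1 (chromosome I, 4789190 to 4789592) were 942 and 927 CPM in monosome RNA, against 229 and 215 CPM in total RNA, or 2.08 on the log2 scale (SE 0.21, adjusted p = 5.55e-21). Its neighbour rpl-41.2 (chromosome I, 4790292 to 4790649) had 9370 and 7740 CPM in monosome RNA and 2823 and 3034 CPM in total RNA, or 1.54 (SE 0.20, adjusted p = 1.82e-12). Both kept their call without the block, but the copies are near-identical, so how reads were divided between them is uncertain, and rpl-41.2 also overlaps another gene. The next shortest, rpl-39, had 1843 and 950 CPM in monosome RNA and 1098 and 1132 CPM in total RNA (0.25), groups that overlap, and it did not pass the test. Neither rpl-42 (0.13) nor rpl-37 (-0.31) passed, with overlapping groups, and rps-27 (-0.18), rps-29 (-0.30), rpl-43 (-0.49) and rps-19 (-0.55) did not pass although both monosome libraries lay below both total RNA libraries.

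Over all protein-coding genes, the log2 fold change varied with the length of the coding sequence, taken from the longest coding transcript. With the genes divided by length into 10 groups of like size, the median was -0.27 at 42 to 384 nt, -0.36 at 387 to 561 nt, 0.06 at 1500 to 1845 nt, 0.24 at 1848 to 2604 nt and 0.68 at 2607 to 45564 nt. In the longest group 686 of 1357 genes were higher (50.6%) and 66 lower. In the group of 387 to 561 nt 82 of 1366 were higher and 419 lower (30.7%). The longest group lay above the shortest by 0.95 on the log2 scale, and its medians in cultures 1 and 2 were 0.52 and 0.73. Spearman's correlation of the fold change with coding length was 0.331 across 13578 genes that share the same 4 libraries, and it was 0.276 in culture 1 and 0.345 in culture 2. With the length of the 5′ UTR it was 0.108, with that of the 3′ UTR 0.127 and with the mean level -0.058. The relation was present at each level of expression, as in 5 groups of rising mean CPM the longest genes lay above the shortest by 0.66, 0.64, 0.66, 0.93 and 0.96, each end being 1 of 5 groups of length.

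**Figure D3:**
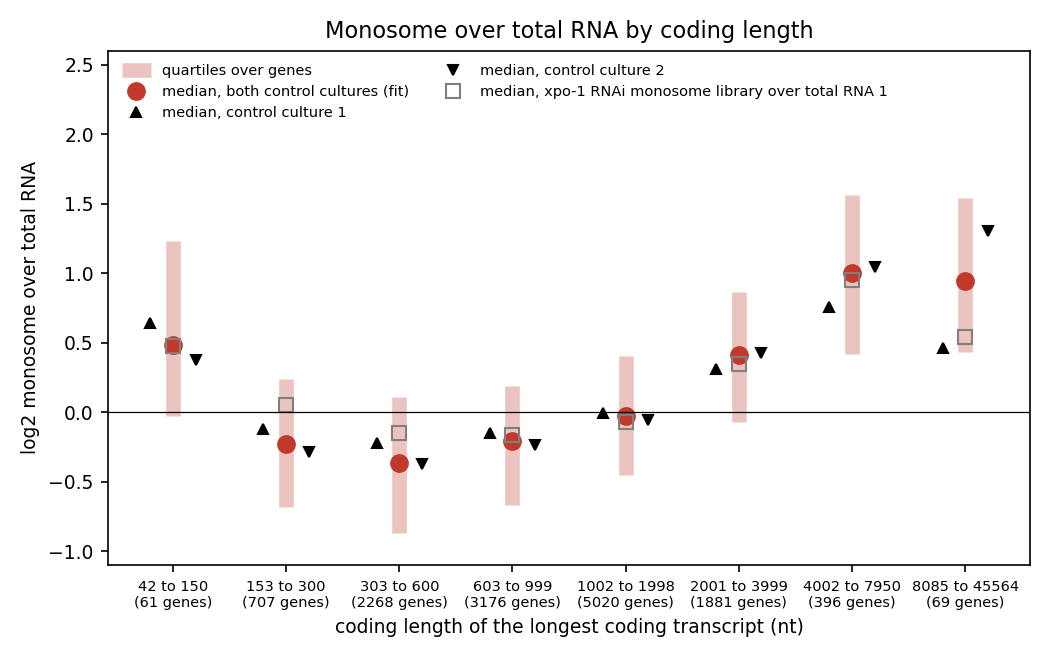
The log2 ratio of monosome to total RNA is plotted for 8 classes of coding length, with the quartiles over genes as a bar, the median of the fit as a filled circle, the medians of cultures 1 and 2 as triangles and that of the xpo-1 RNAi library as a square. The median is lowest at 303 to 600 nt, at -0.36, and highest at 4002 to 7950 nt, at 1.00, and the median of the 61 genes of 42 to 150 nt lies above 0, at 0.48.

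At both ends of the range the classes, whose limits were set after those 10 groups had been seen, stood out. Of 61 genes with a coding length of 42 to 150 nt, 24 were higher and none was lower (median 0.48), while of the 707 genes of 153 to 300 nt 56 were higher and 165 lower (median -0.23). Most of the shortest genes were weakly expressed. Only 13 of the 61 reached a mean of 10 CPM, 6 of these being higher, and 5 of the 24 kept their call without the block. Of the 61, 6 passed the filter only through the monosome libraries, 3 of them called higher. Exons of 16 of the 24 higher genes overlap no other gene, among 48 such genes tested. Besides the rpl-41 genes, the short genes with a change included fbxa-218 (2.49), F20D12.12 (1.29), ostf-4 (0.96) and B0250.7 (0.71). In the class of 4002 to 7950 nt, 260 of 396 genes were higher and 17 lower, and at 8085 to 45564 nt 42 of 69 were higher and 1 lower. The class of 8085 to 45564 nt had medians of 0.46 in culture 1 and 1.31 in culture 2.

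Among the giant proteins, 23 of 42 genes with a coding length of 10074 to 45564 nt were higher and none was lower (median 0.86), but the medians were 0.34 in culture 1 and 1.11 in culture 2. Without the culture block 6 kept their call, and without both the block and monosome replicate 2 the median was 0.23. The titin-like ttn-1 had 11.23 and 22.02 CPM in monosome RNA and 5.93 and 11.09 CPM in total RNA, or 0.96 (SE 0.27, adjusted p = 0.00248). Each monosome library of ttn-1 was above its own culture's total RNA, yet the call was lost without the block (adjusted p = 0.205), as were those for cpna-2 (1.12), the ryanodine receptor unc-68 (1.51) and F39C12.1 (1.17). The hemicentin gene him-4, for an extracellular matrix protein, kept its call, with 21.3 and 40.9 CPM in monosome RNA and 7.82 and 11.8 CPM in total RNA (1.63). The giant muscle kinase gene unc-22 (0.04), dig-1 (0.54), the ubiquitin ligase eel-1 (-0.44) and the perlecan gene unc-52 (-0.26) did not pass the test.

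The 10 genes with the greatest rise among those with a mean of at least 10 CPM all had coding sequences of 1788 to 7911 nt, and each kept its call without the block. None of them had overlapping groups. The RNA-dependent RNA polymerase gene rrf-1 had 34.6 and 70.6 CPM in monosome RNA and 9.17 and 4.84 CPM in total RNA, or 2.88 (SE 0.29, adjusted p = 5.82e-20). For mtk-1, a kinase of a stress-activated MAP kinase cascade, the levels were 47.0 and 77.3 CPM in monosome RNA and 9.17 and 7.36 CPM in total RNA, also 2.88. The cell-corpse engulfment gene ced-5 had 68.4 and 90.1 CPM in monosome RNA, against 14.6 and 8.97 CPM in total RNA (2.77). In each of these the lower monosome library was several-fold above the higher total RNA library. The others were the histone demethylase gene rbr-2 (2.72), the DNA-damage checkpoint kinase gene atl-1 (2.67), the chromatin remodeller gene xnp-1 (2.64), utp-20 for a factor of pre-ribosomal RNA processing (2.57), ints-1 for a subunit of the Integrator complex (2.50), the translesion polymerase gene polk-1 (2.50) and rod-1 for a kinetochore protein of the spindle checkpoint (2.46).

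At the other end, 9 of the 10 lowest genes kept their call without the block. F22H10.10, an unnamed noncoding RNA on the X chromosome, had 1.28 and 4.66 CPM in monosome RNA and 17.3 and 22.1 CPM in total RNA, or -2.88 (SE 0.30, adjusted p = 2.41e-19). C39D10.7 had 37.4 and 48.0 CPM in monosome RNA, against 311 and 297 CPM in total RNA (-2.84). The gene ule-5, one of a group expressed in the uterus and its lumen, had 65.9 and 49.1 CPM in monosome RNA and 446 and 352 CPM in total RNA (-2.80), and ule-3 of the same group was at -2.49. In contrast to the genes that rose most, 7 of these 9 coding genes had coding sequences under 1000 nt. They were completed by F23A7.8 (-2.71), F41F3.3 (-2.64), the aquaporin gene aqp-2 (-2.62), Y51H7C.1 (-2.61), ZK813.7 (-2.61) and the cuticle collagen gene col-180 (-2.50), whose call was lost without the block (adjusted p = 0.059).

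Messages for secreted and structural proteins of the adult were lower in monosome RNA as groups. Collagens, which form the cuticle, had 111 lower (76.0%, against 17.8% of all genes) and 4 higher of 146 (median -1.33). Their medians were -0.96 in culture 1 and -1.48 in culture 2. Both monosome libraries lay below both total RNA libraries for 75 of the 146 genes (27.9% of all genes tested), and 24 kept a lower call without the block. In fits that leave out a library, and with it the block, the list's median was -0.49 without total RNA replicate 2 and -1.94 without monosome replicate 2. The summed epidermis markers, all of them collagen genes, were 901 and 880 CPM in monosome RNA, against 1320 and 2080 CPM in total RNA. These sums were scaled to total counts only. The cuticle collagen gene col-122 had 1385 and 880 CPM in monosome RNA and 2766 and 3493 CPM in total RNA, or -1.49, and kept its call. The lowest after col-180 was col-135, with 1.64 and 2.46 CPM in monosome RNA and 8.55 and 13.7 CPM in total RNA (-2.43). The 4 higher ones were col-158, col-116, col-187 and col-45, none of which kept its call without the block.

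All 6 vitellogenin genes, which encode the yolk proteins made in the intestine, were lower in monosome RNA (median -1.25), and 4 kept their call without the block. The levels of vit-6 were 2726 and 2127 CPM in monosome RNA and 7214 and 6523 CPM in total RNA, or -1.51 (SE 0.20, adjusted p = 4.50e-12). For vit-2, with 7661 and 3362 CPM in monosome RNA and 9925 and 8899 CPM in total RNA (-0.89), the call was lost without the block. Vitellogenin coding sequences are long, so that this group went against the trend with length. The summed intestine markers, of which vit-2 and vit-6 are members, were 10800 and 6570 CPM in monosome RNA and 15400 and 14100 CPM in total RNA. These sums were scaled to total counts only, so they cannot be set beside the CPM of single genes above.

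Lists of other secreted proteins had more lower than higher genes. Of 67 antimicrobial peptide genes 29 were lower and 1 higher (median -0.63), of 95 C-type lectins 36 lower and 1 higher (-0.50), of 118 neuropeptide genes 27 lower and 1 higher (-0.35), and of 31 small secreted or orphan genes 18 lower and none higher (-1.02). Without the block these lower calls numbered 4, 14, 6 and 4. The neuropeptide share of lower genes, 22.9%, was near the 17.8% of all genes. Eggshell genes were mixed, with 5 higher and 3 lower of 12 (median 0.46). The permeability-barrier gene perm-4 had 468 and 361 CPM in monosome RNA and 2054 and 1797 CPM in total RNA, or -2.23 (SE 0.21, adjusted p = 5.73e-24). The chitin synthase gene chs-1 went the other way, at 366 and 503 CPM in monosome RNA and 169 and 130 CPM in total RNA (1.53), and both kept their calls. The eggshell proteoglycan gene cpg-2, with 10730 and 8072 CPM in monosome RNA and 6336 and 4933 CPM in total RNA (0.74), and cbd-1 (0.61) were higher with the block only.

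Major sperm protein genes were mostly lower in monosome RNA, and their levels differed widely between the cultures. Of 29 major sperm protein genes, which encode the cytoskeletal protein of nematode sperm, 28 were lower and 1 higher (median -1.69, with culture medians of -1.70 and -1.61), yet the groups overlapped for 27 of the 29 and none kept its call without the block. Fits that leave out a library, and with it the pairing by culture, gave medians of -3.25 without monosome replicate 2 and -0.19 without total RNA replicate 2. They took 0.0102% and 0.0609% of all counts in monosome RNA and 0.0326% and 0.145% in total RNA, culture 1 first in each, so both fractions held more in culture 2. One of the 2 genes without overlap, msp-142, had 1.69 and 8.24 CPM in monosome RNA and 8.25 and 34.1 CPM in total RNA. The higher one was msp-74 (1.20). Of 48 other sperm genes 20 were lower and 2 higher (median -0.65), the culture medians were -0.47 and -0.54, and in the fit without total RNA replicate 2 or the block the median was 0.30. These genes are near-identical copies in part, and the division of reads among them is uncertain.

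Translation factors were lower in part. Of the elongation factors 4 of 6 were lower (median -0.995). The gene eef-1A.1, whose product brings aminoacyl-tRNA to the ribosome, had 7516 and 5734 CPM in monosome RNA and 16240 and 15690 CPM in total RNA, or -1.28 (SE 0.20, adjusted p = 5.27e-09). The translocase gene eef-2, at 5199 and 3615 CPM in monosome RNA and 5363 and 5304 CPM in total RNA (-0.30), did not pass the test. Of 34 initiation factors 11 were lower and 2 higher (median -0.37), and 3 of the lower ones kept their call without the block. The helicase gene inf-1 had 323 and 300 CPM in monosome RNA and 679 and 676 CPM in total RNA (-1.12), and iff-1 was at -1.06, whereas the cap-binding ife-5 (0.78) and eif-2D (0.93) were higher with the block only. Aminoacyl-tRNA synthetases had 6 higher and 8 lower of 32 (median -0.32), shares not far from the 15.9% higher and 17.8% lower of all genes. Without the block none of the lower synthetases kept its call and 3 of the higher ones did. They were vars-1 (1.72) and aars-1 (1.43), for a valyl and an alanyl enzyme, and lars-2 (1.86), for a leucyl enzyme.

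Several lists were divided into subgroups drawn after the values were seen, whose differences were not tested. In the proteasome, 12 of 14 genes of the proteolytic core particle were lower (median -0.92). The regulatory particle had 4 lower and 1 higher of 19 (median -0.35), a share of lower genes (21.1%) near the 17.8% of all genes. The core gene pas-5 had 150 and 127 CPM in monosome RNA and 352 and 304 CPM in total RNA, or -1.25, and pbs-7 was at -1.19. Of the 8 genes of the CCT chaperonin, which folds actin and tubulin, 6 were lower (median -0.93), cct-3 being lowest at -1.57. The constitutive chaperone gene hsp-1 had 1768 and 1377 CPM in monosome RNA and 4143 and 4100 CPM in total RNA (-1.40). DnaJ-type cochaperone genes had 6 higher and 1 lower of 29 (median 0.22), a share of higher genes (20.7%) near the 15.9% of all genes. They were led by dnj-8 (1.53) and dnj-17 (1.24), both of which kept their call without the block.

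In muscle, the 4 actins were all lower (median -0.87), as were 12 of 17 genes for myosin light chains, troponins and tropomyosin (median -1.04), whereas none of the 4 myosin heavy chain genes was called (median 0.19). The actin gene act-1 had 75 and 293 CPM in monosome RNA and 356 and 533 CPM in total RNA, or -1.55, with values that differed between cultures and a call lost without the block (adjusted p = 0.183). The body wall myosin gene unc-54, at 900 and 1040 CPM in monosome RNA and 632 and 1178 CPM in total RNA (0.17), had overlapping groups. The actins are near-identical copies. The basement membrane list had 5 higher and 3 lower of 12 (median -0.21, of either sign across settings). The 4 laminin chain genes epi-1 (0.90), lam-1 (0.69), lam-2 (0.69) and lam-3 (1.31) were higher with the block only, and the other higher gene was him-4. The lower ones were the cle-1 (-1.77), which kept its call, and ost-1 (-1.25) and the type IV collagen gene emb-9 (-0.71), which did not.

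In the lysosome list, 12 of 21 aspartyl and cathepsin protease genes were lower and none higher (median -0.68), and the cathepsin L gene cpl-1 had 425 and 417 CPM in monosome RNA and 1378 and 1490 CPM in total RNA (-1.77, kept without the block). The vacuolar proton pump had 7 lower and 1 higher of 20 (median -0.27). Glutathione S-transferases had 13 lower and none higher of 31 (median -0.68), 2 of them without the block. Core histones had 11 lower of 28 (median -0.49), none of them without the block, but most core histone mRNAs end without a poly(A) tail and few pass into such libraries. Among 9 linker histones 5 were lower, led by his-24 (-1.76), and hil-8, at 4.61 and 3.94 CPM in monosome RNA and 1.10 and 0.857 CPM in total RNA, was higher (2.13). Of these hil-8, his-24, hil-3 and hil-2 kept their calls without the block.

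The nuclear and regulatory lists, of 18 to 158 genes, each had a share of lower genes below the 17.8% of all genes. Nuclear hormone receptors had 19 higher and 4 lower of 158 (median 0.18), so fewer were called in either direction than among all genes, and 1 of the 19 kept its call without the block. Nuclear pore and transport genes had 11 higher and 4 lower of 40 (median 0.13), with the nucleoporin genes npp-14 (1.71) and npp-21 (1.58) highest. Autophagy genes had 7 higher and none lower of 28 (median 0.11), and 2 kept their call without the block. These were the lipid-transfer gene atg-2, with 26.0 and 48.7 CPM in monosome RNA and 12.9 and 9.02 CPM in total RNA (1.73), and the lipid kinase gene vps-34 (1.20). DNA replication genes had 5 higher and none lower of 34 (median 0.16), a share of higher genes (14.7%) near the 15.9% of all genes, among them pole-1, for the catalytic subunit of polymerase epsilon (1.21), while none of the 6 genes of the MCM helicase was called. The medians of the nuclear transport and autophagy lists fell below 0 in 2 and 1 of 16 alternative settings. Nucleolar and ribosome assembly genes had 5 higher and 2 lower of 18 (median 0.04), with rbd-1, for an RNA-binding protein of ribosome assembly, at 2.004.

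Genes that the study followed, besides the ribosomal protein genes given above, were in part called. The nucleolar methyltransferase gene fib-1 had 2734 and 2173 CPM in monosome RNA and 1995 and 2038 CPM in total RNA (0.27, adjusted p = 0.289). Neither xpo-1 (0.07), nor the autophagy gene lgg-1 (-0.20), its transcription factor hlh-30 (-0.31), the proteasome gene rpn-6.1 (-0.48) or the usual reference gene pmp-3 (0.52) passed the test. The gene ncl-1, a repressor of nucleolar size, was higher, with 102 and 85.9 CPM in monosome RNA and 43.02 and 37.6 CPM in total RNA, or 1.22 (SE 0.23, adjusted p = 2.98e-06), and kept its call without the block. Genes picked for reported upstream open reading frames, which were not examined here, differed among themselves. The polyamine gene smd-1 had 500 and 581 CPM in monosome RNA and 211 and 279 CPM in total RNA (1.15, kept without the block). For the stress transcription factor gene atf-4 the levels were 47.4 and 125 CPM in monosome RNA and 33.8 and 45.5 CPM in total RNA (0.98, lost without the block). The ornithine decarboxylase gene odc-1, with 86.6 and 89.3 CPM in monosome RNA and 61.6 and 69.7 CPM in total RNA (0.42), did not pass the test although its groups did not overlap.

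Annotated pseudogenes, which are not held to encode proteins, were enriched in monosome RNA. Of 2103 pseudogenes in the annotation 476 passed the filter, and 248 of these were higher (52.1%) and 4 lower, with a median log2 fold change of 0.90 (culture medians 0.67 and 0.65). They took 0.652% and 0.824% of all counts in monosome RNA, 0.130% and 0.140% in control polysome RNA, and 0.324% and 0.347% in total RNA. They were weakly expressed, at a median of 1.94 CPM, against 11.23 CPM for protein-coding genes, and 58 kept a higher call without the block. At a mean of 10 CPM or more 49 of 75 were higher and 2 lower, and among the 328 with at least 10 counts in all 4 libraries 187 were higher and 3 lower. The 429 pseudogenes whose exons overlap no other gene had 223 higher and 4 lower. Pseudogenes can share reads with the genes they derive from, so the division of reads is uncertain. Among noncoding RNAs, 17 of 46 lincRNAs were higher and 3 lower, and 13 of 30 small nucleolar RNAs were higher and 4 lower. Where exons overlap no other gene, these were 12 and 3 of 34, and 12 and 4 of 28. The class ncRNA had 29 higher and 16 lower of 93, but 18 and 15 of 74 without exon overlap. Without the block 5 lincRNAs, 1 small nucleolar RNA and 4 genes of the class ncRNA kept a higher call.

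By chromosome, the X chromosome had the lowest median, -0.28, with 164 of 1884 genes higher (8.70%) and 511 lower (27.1%). Medians of the autosomes lay between -0.08 on chromosome IV and 0.03 on chromosome I. The median coding length on X, 1174.5 nt, was not below those of the autosomes, which were 1020 to 1104 nt.

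**Figure D4:**
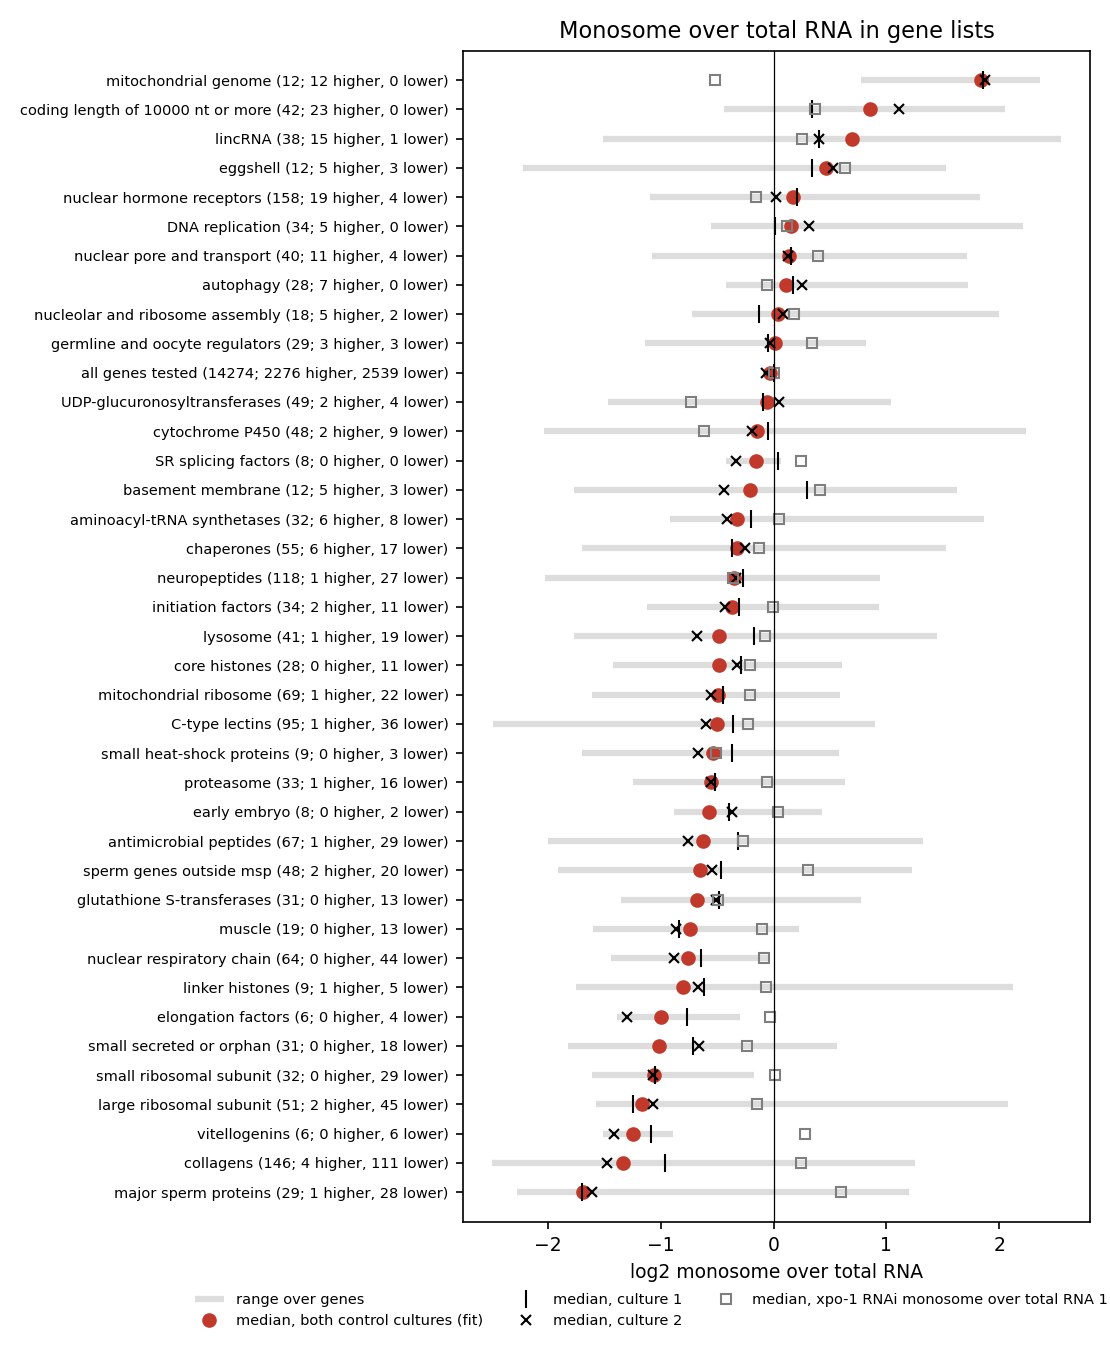
The log2 ratio of monosome to total RNA is drawn for each gene list, with the number tested, higher and lower after its name, the range over its genes as a grey bar, the median of the fit as a filled circle, the medians of cultures 1 and 2 as a line and a cross, and the xpo-1 RNAi median as an open square. The mitochondrial genome is highest at 1.84 and the major sperm proteins lowest at -1.69. The squares of these lists lie on the other side of 0, that of the major sperm proteins resting on few reads.

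Polysome RNA of the same control cultures were read beside these values. Large-subunit ribosomal protein messages made up 6.16% and 7.57% of counts in monosome RNA, 12.7% and 13.5% in polysome RNA and 10.1% and 11.07% in total RNA, and small-subunit messages 4.19% and 4.73%, 9.52% and 10.3%, and 7.11% and 7.76%. Both were thus lower than total RNA in the monosome libraries and higher in the polysome libraries. Collagens did not follow that order in both cultures, at 1.96% and 2.08% in monosome RNA, 3.38% and 4.34% in polysome RNA and 3.31% and 5.34% in total RNA. Vitellogenins were lower than total RNA in both fractions, at 1.73% and 1.14% in monosome RNA, 1.53% and 1.12% in polysome RNA and 2.57% and 2.25% in total RNA.

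**Figure D5:**
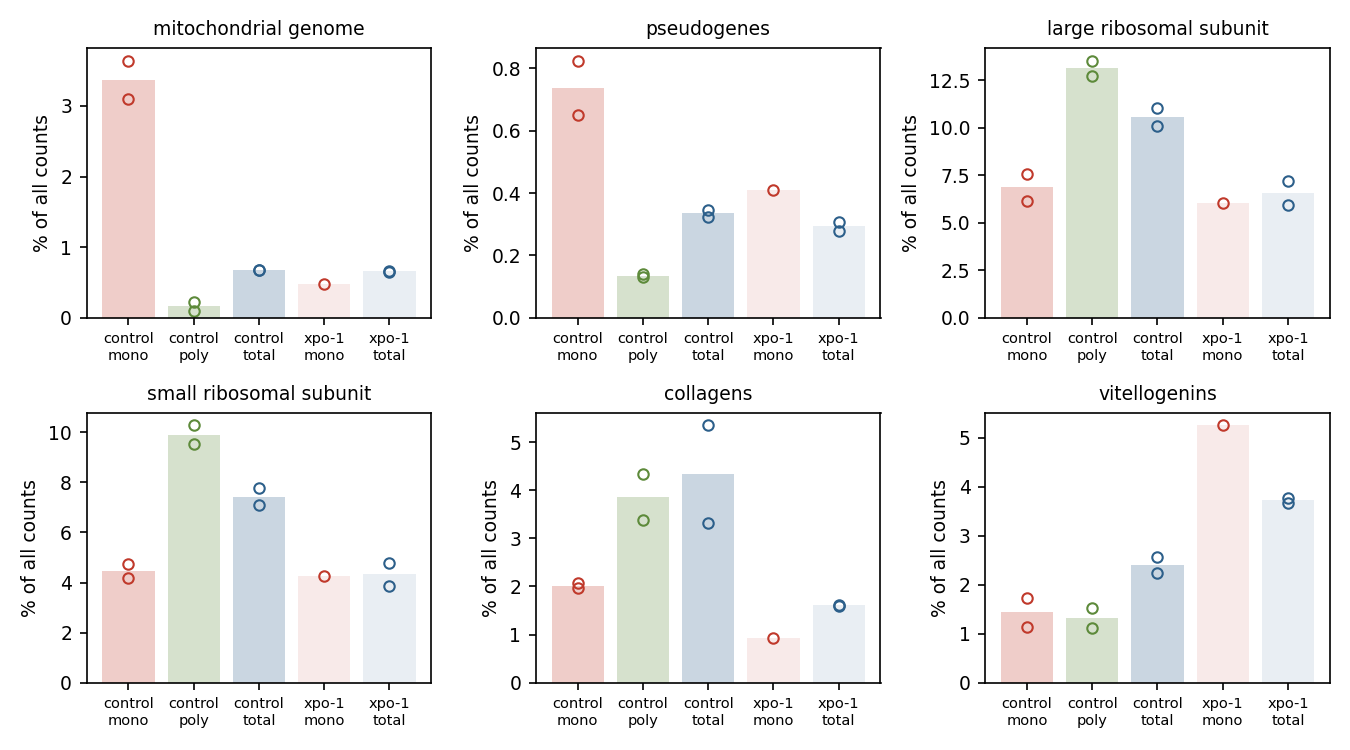
The share of all counts is shown for 6 groups in each library (circles) with the group mean as a bar, from left to right for control monosome, polysome and total RNA and for xpo-1 RNAi monosome and total RNA. Mitochondrial and pseudogene shares are highest in control monosome RNA, and ribosomal protein shares are highest in control polysome RNA.

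The worms on xpo-1 dsRNA gave a separate set of libraries, and the control calls were read in them without a test, since there was 1 xpo-1 RNAi monosome library. Of the 2276 genes higher in control monosome RNA, 2022 (88.8%) had a ratio above 0 over xpo-1 total RNA replicate 1 and 1886 (82.9%) over replicate 2, against 49.4% and 47.8% of all genes. Of the 2539 lower genes, 1933 (76.1%) and 1794 (70.7%) were below 0. The sizes were smaller, with medians of 0.58 and 0.51 for the genes called higher, against 1.16 in control worms, and -0.43 and -0.36 for those called lower, against -1.05. These genes were chosen by their control ratios, which enlarges the control medians, so the sizes cannot be compared. The relation with coding length was present, at medians of 0.59 and 0.43 in the longest of the 10 groups. Mitochondrial genes took 0.477% of counts in xpo-1 RNAi monosome RNA and 0.662% and 0.656% in xpo-1 RNAi total RNA, and their median log2 ratio was -0.52 and -0.24, below 0 over either total RNA library. Large-subunit ribosomal protein messages made up 6.07% of counts in xpo-1 RNAi monosome RNA and 7.21% and 5.92% in xpo-1 RNAi total RNA, so the monosome value lay between them.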

How the data were processed

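Raw counts per gene, deposited by the authors for each library, were used as they stand. The submitters' processing notes name Trimmomatic, STAR and featureCounts of Subread, without versions, and the WBcel235 genome, and whether strand was used in counting is not given in the sources used here. Counts of near-identical copies and of the 3587 tested genes whose exons overlap another gene may therefore be shared. Control monosome and control total RNA libraries were fitted with edgeR 4.0.16 in R 4.3.3 (TMM scaling, culture as a block, quasi-likelihood test, Benjamini-Hochberg adjustment over 14274 genes). Calls required an adjusted p below 0.05 together with a change over 1.5-fold, thresholds the study also used. The SE of a log2 fold change was taken from its F statistic. CPM are scaled by TMM over the 4 libraries, and ratios within a culture add 0.5 CPM. The marker sums are the exception, as they are scaled to total counts only. Gene positions, types and coding lengths came from the Ensembl annotation of WBcel235. The block follows the study's methods, by which both fractions of a number came from the same supernatant, and deviations of same-numbered libraries from their group means correlated over genes at 0.611 (Spearman 0.453). The duplicates are biological. In the main fit the prior degrees of freedom were infinite, so the spread was estimated from genes of like level together. The p-values and SEs therefore do not measure a gene's own difference between the 2 cultures. For act-1 the log2 ratios were -2.24 and -0.86 in cultures 1 and 2, yet its SE was 0.21. On simulated counts for 14026 genes of this comparison, 100% and 89.6% of genes changed by 2 and -2 on the log2 scale were called, 54.0% and 43.5% of those changed by 1 and -1, and 0.0361% of 13832 unchanged genes. The counts were drawn with the spread of the model that then tested them. Few genes were changed, about as many up as down, so these rates cannot vouch for the calls in the data. Members and gene lists were chosen with earlier results of these data known, and genes were named as the 10 highest and 10 lowest called genes at a mean of 10 CPM or more, the most abundant and most changed members of each list, a fixed set from the study, and the shortest and longest called genes. Genes named in subgroups, among ribosomal exceptions and among genes that failed the test were in part chosen after their values were seen. The linker histone gene his-24 was moved out of the core histone list after its values were seen. Alternatives were other scalings (RLE, total counts), filters, no block, DESeq2 1.42.0, 6 control libraries in the fit, no fold threshold and leaving out each library, and 2 were added after seeing the data: edgeR's newer quasi-likelihood fit with robust spread, and genes without exon overlap. No sequence is shown, and 24460 genes without a count in the 4 libraries were not analysed.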

Additional observations from a re-analysis of the deposited data

Results flagged for a closer look

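In 5 gene lists the median log2 ratio of monosome to total RNA had one sign in both control cultures and the other in worms on xpo-1 dsRNA. Because there was 1 xpo-1 RNAi monosome library, the difference was not tested. The mitochondrial genome had medians of -0.52 and -0.24 over xpo-1 RNAi total RNA replicates 1 and 2, against 1.85 and 1.87 in control cultures 1 and 2. Collagens had 0.25 and 0.33 under xpo-1 RNAi, against -0.96 and -1.48 in control cultures. For the vitellogenins the medians were 0.27 and 0.62 under xpo-1 RNAi, against -1.09 and -1.42 in control cultures. Major sperm proteins were at 0.59 and 0.57 under xpo-1 RNAi, against -1.70 and -1.61 in control cultures, and the other sperm genes at 0.31 and 0.33, against -0.47 and -0.54. Under xpo-1 RNAi, major sperm protein genes made up 0.00280% of counts in monosome RNA and 0.00148% and 0.00187% in total RNA. Of these, msp-3 had 0.914 CPM in monosome RNA and 0.0551 and 0.267 CPM in total RNA, scaled over all 11 libraries. With 0.5 CPM added to each side, the major sperm protein ratios under xpo-1 RNAi rest on few reads near the floor.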

How the results depend on the processing

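Without the block 637 genes were higher and 564 lower, all of them also called with it, and 56 of 191 named results fell below the threshold. DESeq2 called 1390 higher and 1694 lower genes. Scaling to total counts gave 2951 higher and 1088 lower. No filter (1965 and 2540), at least 10 counts in all 4 libraries (2043 and 2303), RLE scaling (2251 and 2468), 6 control libraries in the fit (2196 and 2767), no fold threshold (2345 and 2647), leaving out the mitochondrial genome (2266 and 2532), the newer edgeR fit (2259 and 2496) and genes without exon overlap (1672 and 1904) stayed within 1.5 times of 2276 and 2539. Leaving out 1 library also drops the block, since 3 libraries cannot hold it, and gave 224 to 1103 higher and 161 to 1236 lower genes, against 637 and 564 with all 4 libraries and no block. The fewest calls came without total RNA replicate 2, where 91 named results fell below the threshold, and the lone library of a fraction is assumed to vary like the other fraction. Without monosome replicate 2, 1 gene was called in the other direction, and ND3 reversed to -0.012 (1.94 without monosome replicate 1). In no other of these fits was a gene called in the direction opposite to its call with the block, and no other named result reversed. Signs could still change without a call. Without total RNA replicate 2 the median of the sperm genes outside the major sperm protein family was 0.30, against -0.65. The longest of 10 groups of coding length lay above the shortest by 0.69 to 1.07 when a library or a culture was left out, with 0.69 in culture 1 alone, against 0.95 in both cultures.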
